A study of Homo sapiens with 21 samples.

Results

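The genes described here encode the proteins of the cytosolic ribosome. They were taken by symbol from the table of deposited counts: RPL or RPS and a number, with an optional A, X, L or L1 at the end, together with RPLP0, RPLP1, RPLP2 and RPSA, and without RPS27L. A gene also had to have at least 10 counts in every library. Of 82 symbols that matched, 80 met that minimum, among 37637 features in the table: 31 genes of the small subunit and 49 of the large subunit. The 2 that did not were RPL3L, with 9 to 37 counts per library, and RPL39L, with 0 to 1. The least counted genes inside the rule were RPL22L1, with a lowest count of 331, RPL26L1 with 708 and RPL9 with 1409, so no gene stood close to the minimum from above. FAU and RACK1 also belong to the ribosome but carry other names, and they are given below as a comparison. All 80 genes passed the filter on low counts of the test.

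The study exposed HepG2 cells, an established human liver cancer cell line, to caffeine for 6 h and measured RNA by sequencing. Caffeine stood at 0, 0.01, 0.1, 1, 10, 100 or 1000 µM, with 3 samples a dose and 21 in all. Every group, the untreated controls at 0 µM included, was kept in serum-free medium during the exposure, and RNA was selected on poly(dT) beads before cDNA synthesis. The series' text calls the 3 samples of a dose biological replicates, and nothing says whether they were exposed on separate days.

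Each ribosome is built from ribosomal RNAs and a fixed set of proteins, and a growing cell spends a large part of its transcription on these parts. The mRNAs of ribosomal proteins are short, abundant and stable, and most begin with a cytosine followed by an unbroken run of pyrimidines, the 5′ terminal oligopyrimidine (TOP) motif. Through that motif the LARP1 protein and the kinase mTORC1 control whether these mRNAs are translated or held back, largely without changing how many there are. In liver cells the same pathway couples protein synthesis to nutrients and to serum factors.

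The start sites of the genes that the results turn on are shown first, since the TOP motif is the sequence that most of these genes share and that the rule did not use. Start-site windows from RefSeq (GRCh38.p14) matched 65 of the 80 genes. Each line below holds 30 bases read 5′ to 3′ on the gene's strand, of which the first 15 lie upstream of the annotated start and the last 15 open the 5′ untranslated region. Capitals mark the pyrimidine run that begins with a cytosine at the annotated start. RPLP2, RPLP1, RPL36, RPL24, RPS3 and RPS6 fell at the higher doses, RPLP0 did not pass the test at 1000 µM, and RPS28, RPS26, RPS15 and RPL7L1 had profiles of their own. The genes shown were picked by these results, so the lines do not show how the motif goes with the response. RPL36A, named below for a profile of its own, has such a run and is not shown.
RPLP2, chr11:809952-809981, plus strand: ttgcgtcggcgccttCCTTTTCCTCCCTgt
RPLP1, chr15:69452803-69452832, plus strand: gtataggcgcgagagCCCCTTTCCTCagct
RPL36, chr19:5690280-5690309, plus strand: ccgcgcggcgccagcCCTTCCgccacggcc
RPL24, chr3:101686704-101686733, minus strand: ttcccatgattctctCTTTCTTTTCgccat
RPS3, chr11:75399503-75399532, plus strand: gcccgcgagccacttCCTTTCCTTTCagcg
RPS6, chr9:19380222-19380251, minus strand: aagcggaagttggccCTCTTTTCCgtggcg
RPLP0, chr12:120201097-120201126, minus strand: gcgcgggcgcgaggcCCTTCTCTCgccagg
RPS28, chr19:8321481-8321510, plus strand: tccccgaagcacgtgactcctctccgccag
RPS26, chr12:56041903-56041932, plus strand: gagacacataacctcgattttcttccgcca
RPS15, chr19:1438381-1438410, plus strand: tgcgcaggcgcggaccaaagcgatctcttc
RPL7L1, chr6:42879601-42879630, plus strand: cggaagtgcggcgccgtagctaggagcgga

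A cytosine at an annotated start with at least 4 more pyrimidines after it was found in 47 of the 65 matched genes (72.3%), against 5.14% of 27305 genes in the same table. The run was 5 to 19 bases long with a median of 8. The 18 matched genes whose annotated starts lacked it included RPS28, RPS26, RPS15, RPL7L1, RPL4 and RPL3, which says only that these letters do not stand at the annotated base, and a start site annotated a few bases off would hide a run. On either strand of the 250 bases before and 50 bases after a start, CCGGAAG, a core that ETS factors bind, stood in 23 of the 65 genes (35.4%) and in 12.2% of all genes. AAGATGGC, a core that YY1 binds, stood in 7 of the 65 (10.8%) and in 3.52% of all genes. The 2 searches used different letters and were counted apart. The log2 fold change at 1000 against 0 µM had a median of -0.64 over the 47 genes with a pyrimidine start and -0.45 over the 18 without. Over the 15 genes with no matched start it was -0.50. In the test described below 28, 8 and 9 of them, respectively, were lower, as were 20.6% of all features. No difference between these groups was tested, and they were not matched for gene length.

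Libraries held 28043623 to 40827833 counts. The cells carried the RNAs of hepatocyte-like HepG2 cells, with ALB, AFP, APOA1, APOB, TF, FGB, SERPINA1 and TTR all detected in every library, while PTPRC, COL1A1 and KRT5, marks of blood, fibroblasts and squamous epithelium, had at most 6 counts. Counts on genes of the mitochondrial genome made up 4.95 to 14.2% of a library. That share was over 11% in 3 libraries, replicate 1 at 0.01 µM, replicate 3 at 1 µM and replicate 1 at 10 µM, and results that could rest on these 3 are given with and without them.

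The ribosomal protein genes took a smaller share of the counts in treated cells than in controls. They held 6.70, 6.74 and 5.67% of the counts in the 3 control libraries. At 0.01 µM they held 5.24, 5.01 and 5.09%, at 0.1 µM 5.35, 4.83 and 6.17%, and at 1 µM 5.58, 4.57 and 4.92%. The lowest dose already stood below the controls, and the only treated library inside their range was replicate 3 at 0.1 µM. At 10 µM the shares were 4.48, 4.60 and 4.80%, at 100 µM 5.40, 5.08 and 4.51%, and at 1000 µM 4.30, 5.32 and 4.04%. In all, 17 of 18 treated libraries lay under the lowest control, and the mean share went from 6.37% ± 0.607 (SD, n = 3) at 0 µM to 4.55% ± 0.674 (SD, n = 3) at 1000 µM, which is 71.5% of the control mean. In bulk RNA of this kind, fewer transcripts per cell of these genes and more of all others cannot be told apart.

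**Figure D1:**
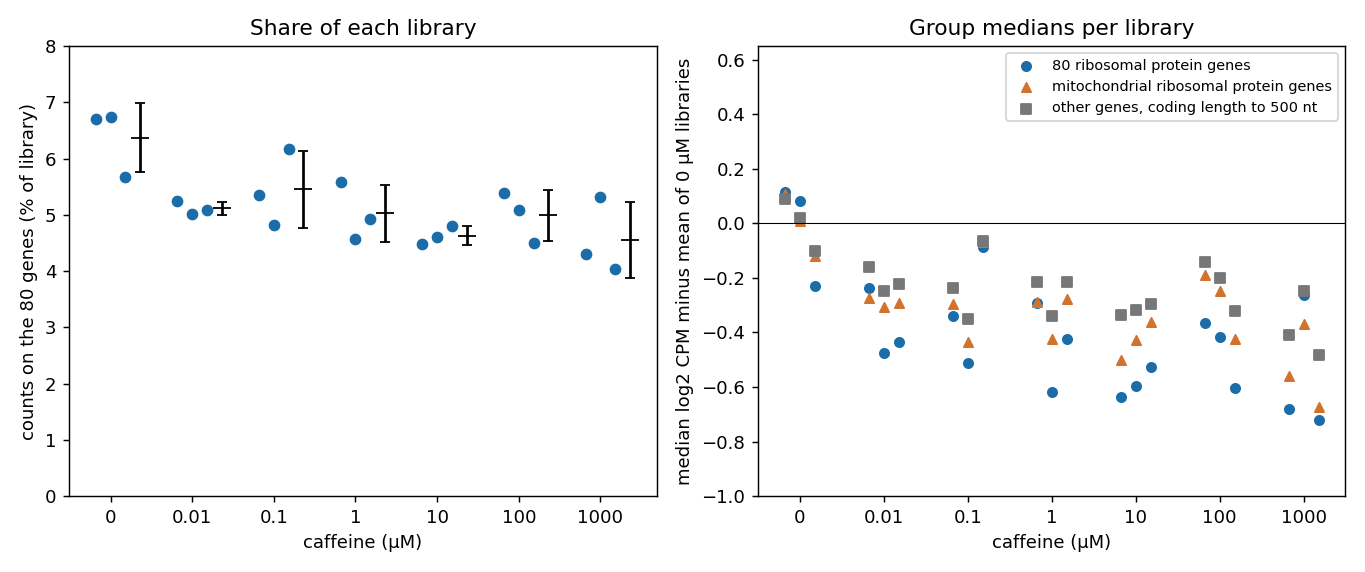
Left, the counts on the 80 ribosomal protein genes as a percent of each library, by caffeine dose in µM; points are libraries and bars are the mean ± SD of 3. Right, for each library, the median log2 CPM minus the mean of the control libraries over the 80 genes, over the mitochondrial ribosomal protein genes and over other genes with coding lengths to 500 nt; the 3 medians are lower than in every control in 17 of the 18 treated libraries and move together between libraries.

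The shift was also seen gene by gene. Values are given as CPM, a gene's counts scaled to a common library size with TMM factors, and changes are log2 fold changes with standard errors from 1 edgeR quasi-likelihood fit over all 17468 features tested, called at an adjusted p under 0.05. Relative to the mean of the controls, the median of the 80 genes stood at 0.12, 0.08 and -0.23 in the control libraries on the log2 scale, so the third control was itself on the low side. It was -0.24, -0.47 and -0.44 at 0.01 µM, -0.34, -0.51 and -0.09 at 0.1 µM, and -0.29, -0.62 and -0.42 at 1 µM. The same median was -0.64, -0.59 and -0.53 at 10 µM, -0.36, -0.42 and -0.60 at 100 µM, and -0.68, -0.26 and -0.72 at 1000 µM. Libraries of 1 dose could thus differ by as much as neighbouring doses did. Of the 80 genes, 70 had their highest group mean at 0 µM, where 27.6% of all features had theirs, and 36 had their lowest at 1000 µM and 31 at 10 µM, where 30.3 and 13.7% of all features had theirs.

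Against 0 µM, no ribosomal protein gene passed as higher at any dose. At 1000 µM 45 of 80 genes were lower (56.2%), where 41.2% of all features were called in either direction and 20.6% were lower; the median log2 fold change was -0.55 over the 80 genes and -0.03 over all features. At 100 µM 17 genes were lower (21.2%, against 6.02% of all features called and 3.27% lower), with a median of -0.47. At 10 µM 48 genes were lower (60%, against 22% of all features called and 10.7% lower), with a median of -0.60. All 3 comparisons share the same 3 control libraries, so their counts are not separate evidence. Without the first or the second control the count was 18 or 26 at 10 µM and 0 at 100 µM, and without the third control it was 52 and 28. At 10 µM the count was also 20 without replicate 1 and 25 without replicate 2 of that dose, and at 100 µM it was 7, 0 and 0 without replicates 1, 2 and 3 of that dose. At 1000 µM no left-out library moved the count by more than 1.5 times, and it ran from 30 to 56.

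At the lower doses the same direction was present with few calls. At 0.01 µM 4 genes were lower, RPS6, RPS9, RPL13 and RPLP2 (5%, against 2.08% of all features), with a median of -0.37 over the 80 genes; the call count was 0 without the first or second control, or without replicate 1 or 2 at 0.01 µM, and 13 without the third control. At 0.1 µM edgeR called 0 genes (0% of all features) and DESeq2 called 3. At that dose 24 genes had an unadjusted p under 0.05 in edgeR, as did 2651 of all 17468 features. At 1 µM edgeR called 0 genes (0% of all features) and DESeq2 called 22. There, 45 genes had an unadjusted p under 0.05 in edgeR, as did 3979 of all 17468 features. The DESeq2 calls are given without a count over all features. The edgeR call count was 4 without replicate 3 at 0.1 µM and 20 without replicate 1 at 1 µM. Taking the 9 libraries at 0.01, 0.1 and 1 µM together against the controls, 21 genes were lower (26.2%, against 3.86% of all features), among them RPS6 (-0.44 ± 0.0855 SE), RPS9, RPS20 and RPL5, but none was called without the first or the second control, and 6 of the 21 were still called with either length curve, described below, taken out. The count was 35, 33 and 32 without replicate 1 at 0.01 µM, replicate 3 at 0.1 µM and replicate 1 at 1 µM, and 5 without replicate 1 or 2 at 0.1 µM or replicate 2 at 1 µM.

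Counted by libraries, all 3 treated values lay below all 3 control values for 62 genes at 10 µM (77.5%, against 23.4% of all features), for 54 at 100 µM (67.5%, against 22%) and for 43 at 1000 µM (53.8%, against 27.2%). The corresponding counts were 30 at 0.01 µM (37.5%, against 16.3%), 9 at 0.1 µM (11.2%, against 12.4%) and 24 at 1 µM (30%, against 12.5%). For 2 genes, RPS6 and RPL8, the 3 controls lay above all 18 treated libraries (2.5%, against 2.1% of all features, so the share was near the background). A slope on the dose step, 0 to 6, passed for 47 genes, all downward (58.8%, against 14.5% of all features), and a difference among the 7 groups passed for 30 (37.5%, against 28.1%). Without the first control the slope count was 30 and the group count 12, and without the second control the group count was 13.

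**Figure D2:**
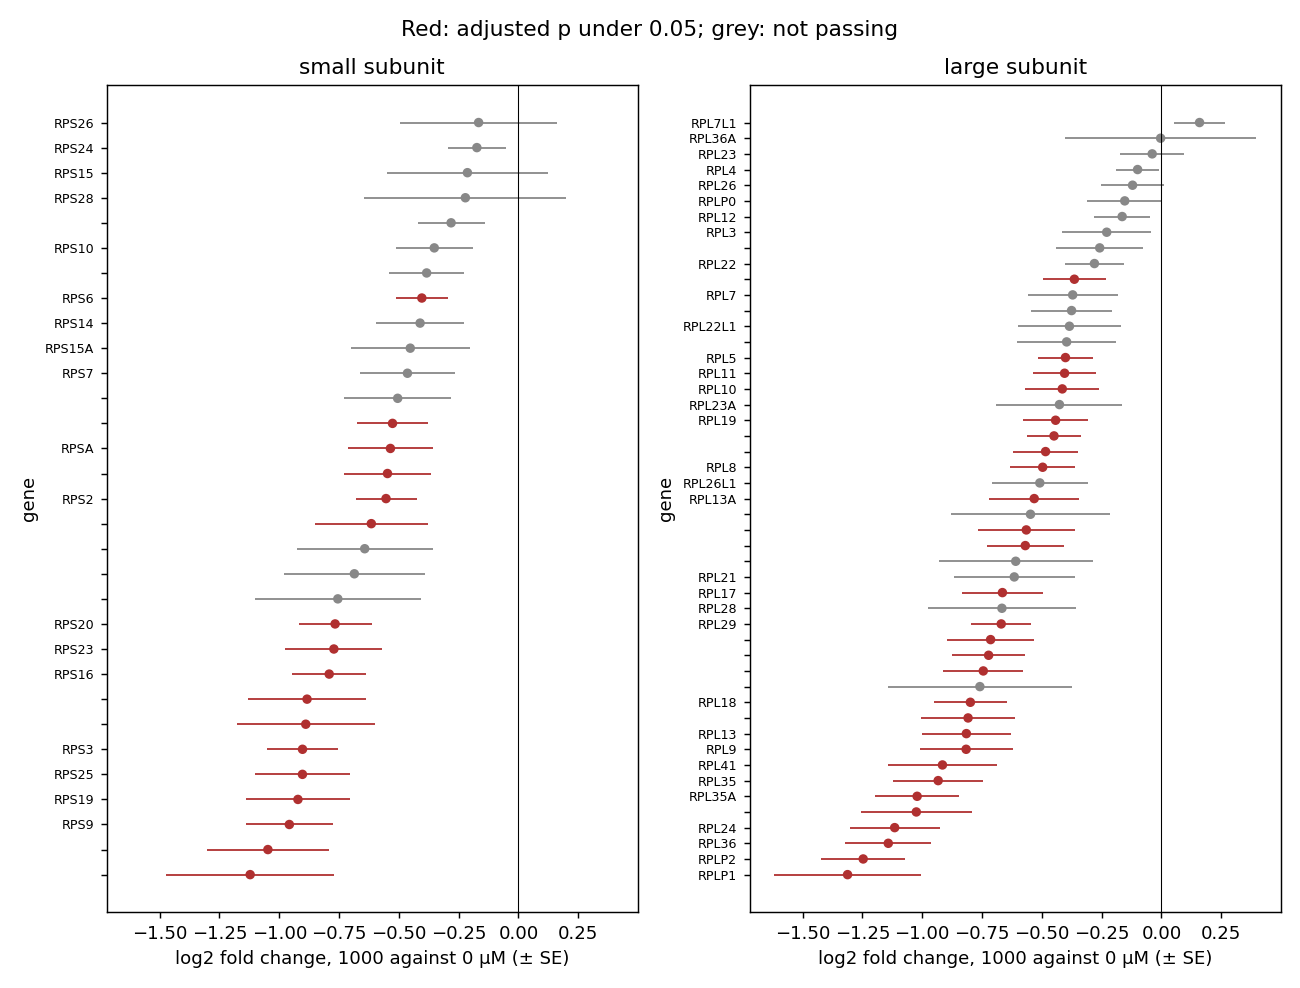
Log2 fold change at 1000 against 0 µM for each of the 31 small-subunit and 49 large-subunit genes, with bars of 1 SE; red points passed at an adjusted p under 0.05 and grey points did not, and only genes named in the text carry a label. Values run from -1.31 for RPLP1 to 0.16 for RPL7L1, and all 45 that passed are below 0.

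Short genes in general stood lower in treated cells, so the shift of the ribosomal protein genes was measured beside that of other genes of like coding length. The 80 genes have coding lengths of 75 to 1281 nt with a median of 454.5. At 1000 against 0 µM the median over 1173 other coding genes of up to 500 nt was -0.39, and 41.7% of them were lower. The 49 ribosomal protein genes in that range had a median of -0.67, and 23 of the 49 were lower, a share near that of the other genes. Above 500 and up to 1000 nt the medians were -0.23 over 2949 other genes, 34.8% of which were lower, and -0.50 over 29 ribosomal protein genes, of which 22 were lower. Genes over 2000 nt moved the other way, with a median of 0.23 and 40.5% higher. At 10 µM the medians up to 500 nt were -0.32 for other genes and -0.67 for ribosomal protein genes, and above that up to 1000 nt -0.20 and -0.53. The medians of the ribosomal protein genes thus lay below those of other genes in the same length range at both doses. The other genes carried a smaller shift in the same direction, and up to 500 nt at 1000 µM the shares called were near each other.

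The shift of short genes moved with that of the ribosomal proteins library by library. In replicate 3 at 0.1 µM, the treated library closest to the controls, the medians were -0.09 for the ribosomal protein genes, -0.07 for the mitochondrial ribosomal protein genes and -0.06 for the other short genes. In replicate 3 at 1000 µM they were -0.72, -0.67 and -0.48, and in replicate 2 of the same dose -0.26, -0.37 and -0.25. The median of the ribosomal protein genes was below that of the other short genes in 18 of 18 treated libraries, and below that of the mitochondrial ribosomal protein genes in 16. When a smooth curve of transcript length and GC content was taken out of each library, 18 ribosomal protein genes were lower and 2, RPL12 and RPL23, were higher at 1000 µM, with a median of -0.18, while 20.6% of all features were lower, so the share of ribosomal protein genes was near the background. Of the 45 genes called without the curve, 17 were still called with it. Among the 17 were RPL37, RPL37A, RPS23 and RPL27A, whose transcript models here are 7686, 3647, 3437 and 4916 nt long. Their coding lengths are 291, 276, 429 and 444 nt. Their folds were -1.34, -1.285, -1.02 and -0.81 with transcript length and -0.56, -0.75, -0.60 and -0.24 with coding length. RPL27A was not called with coding length. With coding length in place of transcript length, a setting chosen after seeing the data, 29 were lower, all of them among the 45, and 1, RPL7L1, was higher, with a median of -0.28, while 20.1% of all features were lower. At 10 µM these settings gave 23 lower and 3 higher, and 29 lower and 1 higher, with medians of -0.34 and -0.37, where 10.9 and 11% of all features were lower. At 100 µM they gave 9 lower and 1 higher, and 13 lower and 0 higher, where 3.22 and 3.11% of all features were lower. The part of gene length, of RNA quality or of library preparation in the shift was not tested beyond these values.

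**Figure D3:**
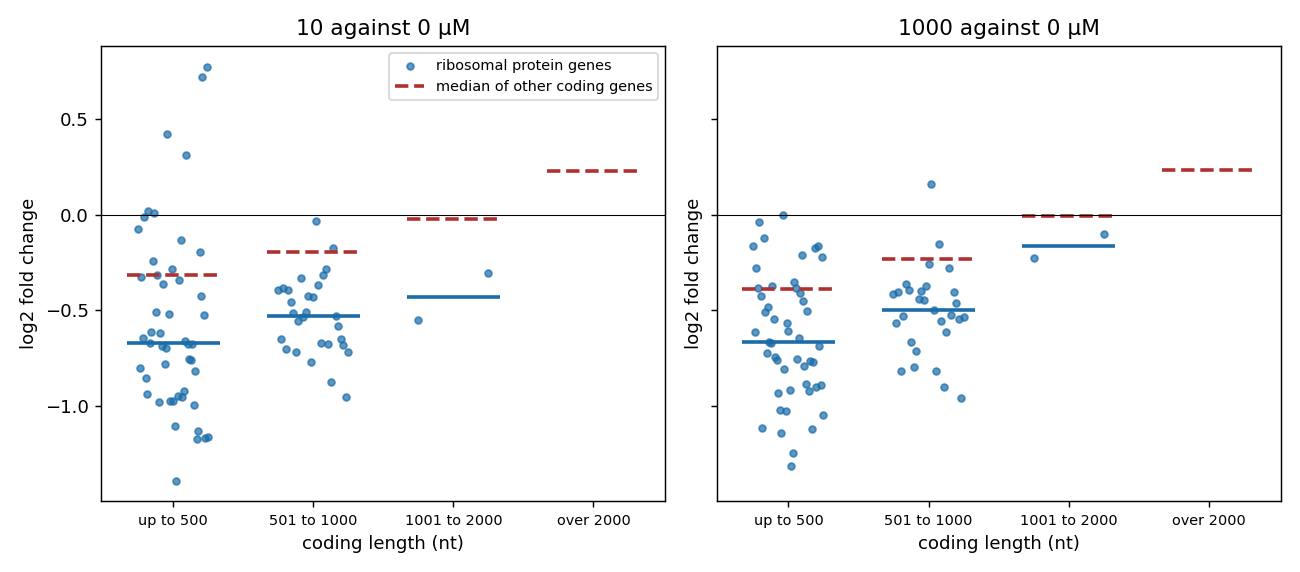
Log2 fold change against 0 µM at 10 and at 1000 µM by coding length in nt; blue points are ribosomal protein genes with their median as a solid line, and red dashed lines are medians of other coding genes in the same range. Up to 1000 nt the blue medians lie below the red ones at both doses, and the red medians rise from -0.39 for genes up to 500 nt to 0.23 over 2000 nt at 1000 µM.

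The acidic stalk of the large subunit, which recruits the GTPases of elongation, split in its response. RPLP2 (ENSG00000177600, chr11:809647-812880, GRCh38), an acidic stalk protein, had 571, 629 and 398 CPM in the controls. It had 365, 345 and 336 CPM at 0.01 µM, 396, 330 and 498 at 0.1 µM, and 412, 290 and 393 at 1 µM. At 10 µM it had 277, 271 and 279, at 100 µM 307, 290 and 275, and at 1000 µM 241, 254 and 178. The libraries at 0.1 and 1 µM overlapped the controls, those at the other doses did not, and the 3 at 1000 µM lay below all 18 others. The log2 fold change at 1000 against 0 µM was -1.25 ± 0.175 (SE; edgeR quasi-likelihood, adjusted p = 3.32e-05), the smallest p among the 80 genes. It was -0.95 at 10 µM (adjusted p = 0.00374) and -0.87 at 100 µM (adjusted p = 0.0159). With the transcript-length and GC curve taken out, the fold at 1000 µM was -0.51 and still passed; with coding length it was -0.49 and also passed.

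RPLP1, the partner of RPLP2 in the stalk, had 603, 827 and 402 CPM in the controls, 212, 210 and 276 at 10 µM, 285, 247 and 215 at 100 µM, and 207, 357 and 174 at 1000 µM. No library at 10, 100 or 1000 µM reached the lowest control, and the log2 fold changes were -1.39, -1.30 and -1.31 ± 0.308 (SE; adjusted p = 0.00257 at 1000 µM). RPLP0, the scaffold on which both sit, had 2799, 2554 and 2152 CPM in the controls and 1807, 2739 and 2203 at 1000 µM, so the groups overlapped. Its fold was -0.15 ± 0.156 (SE; adjusted p = 0.454), and it had the other sign with the length and GC curves taken out (0.17 and 0.03) and without replicate 1 at 1000 µM (0.01). RPL12, which binds at the base of the stalk, was at 970, 877 and 847 CPM in the controls and 832, 863 and 710 at 1000 µM. Its fold was -0.16 ± 0.118 (SE; adjusted p = 0.281), and 0.29 with the transcript-length curve taken out. Of these 4 genes, 2 were lower at 10 and at 1000 µM, and no difference between the 4 was tested.

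**Figure D4:**
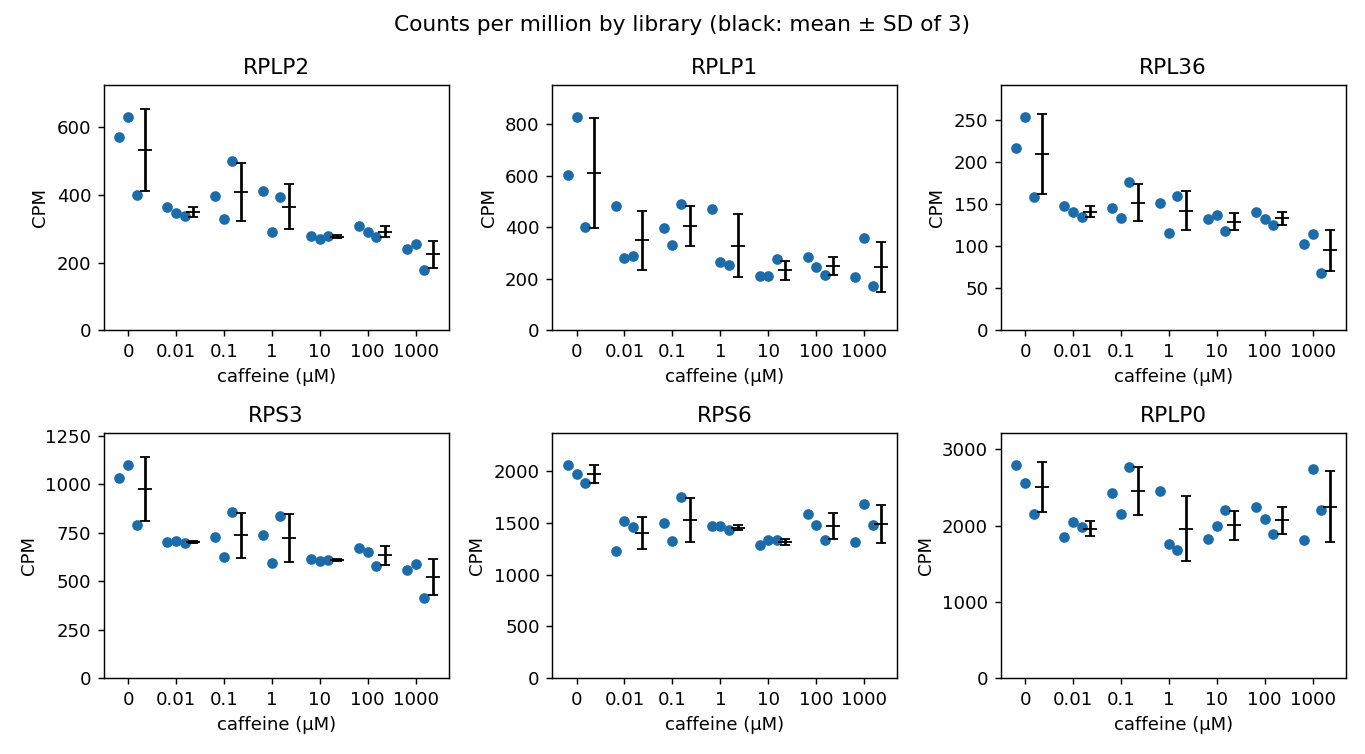
CPM of RPLP2, RPLP1, RPL36, RPS3, RPS6 and RPLP0 in each library by caffeine dose in µM; black bars are the mean ± SD of 3 libraries. RPLP2, RPLP1, RPL36, RPS3 and RPS6 are below every control in all libraries at 10 and 1000 µM, whereas RPLP0 overlaps its controls at 1000 µM.

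RPL36 (chr19:5674947-5691876), a protein of the large subunit, had 217, 254 and 159 CPM in the controls and 103, 115 and 68.3 at 1000 µM. Its 3 libraries at 1000 µM lay below all 18 others, as did those of RPS25 and RPLP2 and of no other gene among the 80 (3.75%, against 5.26% of all features, so the share was near the background). The log2 fold change was -1.14 ± 0.180 (SE; adjusted p = 9.75e-05). RPL24, which forms a bridge between the subunits, had 439, 454 and 311 CPM in the controls, 226, 210 and 193 at 10 µM, and 172, 230 and 154 at 1000 µM. All treated libraries at those 2 doses were below the controls, with a fold of -1.12 ± 0.188 (SE; adjusted p = 0.000179) at 1000 µM. RPL35A went from 382, 439 and 276 CPM to 175, 222 and 143, a fold of -1.02 ± 0.175 (SE; adjusted p = 0.000207). RPL29 went from 913, 991 and 716 CPM to 551, 623 and 473, a fold of -0.67 ± 0.125 (SE; adjusted p = 0.000423), but only -0.098 (adjusted p = 0.377) with the transcript-length curve taken out. RPL36 overlaps other genes on both strands in GENCODE 29, and the strand setting of the counting is not given in the sources used here, so its counts could include reads of those genes.

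RPS3, at the entry of the mRNA channel and a repair enzyme outside the ribosome, had 1032, 1100 and 789 CPM in the controls. It had 613, 603 and 611 CPM at 10 µM, 672, 650 and 578 at 100 µM, and 557, 591 and 414 at 1000 µM. No library at these 3 doses overlapped the controls, and the log2 fold change at 1000 µM was -0.90 ± 0.150 (SE; adjusted p = 0.000156). Of the 9 genes listed for the mRNA channel and decoding site, 5 were lower at 1000 µM, among them RPS3, RPS9 (-0.96), RPS23 (-0.77) and RPS2 (-0.55). With the transcript-length curve taken out RPS9 (adjusted p = 0.0649) and RPS2 (adjusted p = 0.407) missed the threshold. RPS14, at -0.41, RPS15, RPS26 and RPS28 did not pass. RPS9 lies in a stretch where it overlaps several genes on both strands.

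RPS6, the substrate of S6 kinase, had 2060, 1973 and 1888 CPM in the controls. The 18 treated libraries ran from 1228 to 1749 CPM, below all controls, and those at 1000 µM had 1316, 1683 and 1475.5. The log2 fold change was -0.50 ± 0.108 (SE; adjusted p = 0.0392) at 0.01 µM, -0.58 at 10 µM (adjusted p = 0.00374), -0.43 at 100 µM (adjusted p = 0.0319) and -0.40 at 1000 µM (adjusted p = 0.00607). The controls were thus apart from every treated library. At 1000 µM against the mean of 0.01 to 10 µM the fold of RPS6 was 0.07 (adjusted p = 0.571).

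RPL5 and RPL11 form, with the 5S rRNA, the particle that can bind and inhibit MDM2. RPL5 had 1018, 951 and 847 CPM in the controls and 673, 795 and 665 at 1000 µM, without overlap. RPL11 had 1667, 1711 and 1497 CPM in the controls and 1252, 1374 and 1056 at 1000 µM, also without overlap. Their folds at 1000 µM were -0.40 ± 0.113 (SE; adjusted p = 0.00896) and -0.40 ± 0.130 (SE; adjusted p = 0.0189). RPL11 missed the threshold without the first control, the second control or replicate 3 at 1000 µM, and with either length curve taken out (adjusted p = 0.377 and 0.177). RPL5 missed it without replicate 1 at 1000 µM (adjusted p = 0.0512) and with the transcript-length curve taken out (adjusted p = 0.0827).

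Among 9 genes often mutated in Diamond-Blackfan anaemia, an inherited failure of red cell production, 5 were lower at 1000 µM. RPS19, the one mutated most often, had 815, 679 and 585 CPM in the controls, 296, 342 and 405 at 10 µM, and 352, 445 and 301 at 1000 µM. These groups did not overlap, and its fold passed at 10 µM (adjusted p = 0.00584) and was -0.92 ± 0.216 (SE; adjusted p = 0.00254) at 1000 µM, though with the length curves taken out it missed the threshold (adjusted p = 0.313 and 0.145). RPL35A, RPL5 and RPL11 were also among those that were lower, and those that did not pass were RPS7 (-0.46), RPS10 (-0.35), RPS24 (-0.17) and RPS26 (-0.17). Of 3 neighbours of the peptidyl transferase centre, RPL8 (-0.50) and RPL10 (-0.41) were lower and RPL3 (-0.23, adjusted p = 0.34) did not pass. With transcript or coding length taken out neither RPL8 (0.07 and -0.013) nor RPL10 (-0.069 and -0.077) was called, and RPL8 changed sign with transcript length. Of 9 genes at the exit tunnel, RPL17, RPL19 and RPL35 were lower at 1000 µM. RPL19 was not called with either curve taken out (0.010 and -0.14), and RPL35 was not with transcript length (adjusted p = 0.0545). RPL4, which lines the tunnel, was at 2381, 2124 and 2141 CPM in the controls and 1936, 2242 and 2024 at 1000 µM, a difference of -0.10 ± 0.0902 (SE; adjusted p = 0.397), and had the smallest spread within groups of all 80 genes, an SD of 0.10 on the log2 scale. By subunit, 17 of 31 small-subunit and 28 of 49 large-subunit genes were lower at 1000 µM, with medians of -0.55 and -0.53.

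The remaining genes among the smallest p-values at 1000 µM were RPL18 (-0.80), RPS16 (-0.79), RPS20 (-0.77) and RPL35 (-0.93). RPS20 had 535, 614 and 449 CPM in the controls and 308, 341 and 291 at 1000 µM. RPS16 had 629, 665 and 483 in the controls and 326, 418 and 283 at 1000 µM. Neither gene had a library at 1000 µM inside the control range. RPL18 was not called with either length curve taken out (adjusted p = 0.158 and 0.109), nor was RPS16 with transcript length (adjusted p = 0.0844).

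None of the 3 diverged paralogs that met the rule and its minimum count, RPL7L1, RPL22L1 and RPL26L1, passed at 1000 µM. Paralogs outside the rule are not part of this statement. Of those, RPL36AL (-0.76 ± 0.149 SE, adjusted p = 0.000643) and RPL3L (-1.04 ± 0.320 SE, adjusted p = 0.0145) were lower at that dose. RPL3L had only 9 to 37 counts per library. RPL7L1, a relative of RPL7 that acts in making the large subunit, was at 292, 268 and 279 CPM in the controls and 302, 324 and 311 at 1000 µM. Its fold of 0.16 ± 0.107 (SE; adjusted p = 0.244) was the only one above 0 at that dose; it was 0.23 (adjusted p = 0.0296) with the coding-length curve taken out and -0.11 (adjusted p = 0.373) with the transcript-length curve. RPL22L1, the paralog of RPL22, was at 19.1, 18.2 and 16.0 CPM in the controls and 12.4, 16.0 and 12.4 at 1000 µM, with a fold of -0.38 (adjusted p = 0.161). RPL26L1, the paralog of RPL26, was at 48.1, 46.3 and 35.6 CPM and then 24.1, 38.6 and 28.7, with a fold of -0.51 (adjusted p = 0.0514). At 10 µM RPL22L1 (-0.65) and RPL26L1 (-0.67) were lower.

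Few ribosomal protein genes were called between 1000 µM and the other treated doses, the only pairs of treated doses compared. At 1000 µM, 6, 8, 8, 1 and 1 genes were lower than at 0.01, 0.1, 1, 10 and 100 µM, which is 7.5, 10, 10, 1.25 and 1.25% of them, against 8.5, 11.5, 10.7, 8.44 and 6.55% of all features. The first 3 shares were near the background and the other 2 under it. The medians over the 80 genes were -0.23, -0.27, -0.12, -0.0063 and -0.12 in the same order, where those over all features ran from -0.026 to -0.0059. These comparisons use no control library, but they share the 3 libraries at 1000 µM, and without replicate 3 at that dose the counts were 0, 1, 0, 0 and 0. Without replicate 2 at that dose they were 11 against 0.01 µM, 15 against 0.1 µM and 0 against 10 µM, and without replicate 1 they were 5 against 0.1 µM and 6 against both 10 and 100 µM. Leaving out replicate 1 at 0.01 µM gave 3, replicates 1 and 3 at 0.1 µM gave 2 and 1, and replicate 3 at 1 µM gave 1. The single gene against both 10 and 100 µM was RPL35, with 374, 275 and 236 CPM at 1000 µM, 463, 506 and 345 at 10 µM, and 485, 469 and 426 at 100 µM; it was not called against 10 µM without either of the first 2 libraries of that dose, nor against 100 µM without either of the first 2 libraries there. Without replicate 3 at 10 µM the count against that dose was 2.

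Against the mean of the 12 libraries at 0.01 to 10 µM, 10 genes were lower at 1000 µM (12.5%, against 14.4% of all features, a share near the background), and the median over the 80 genes was -0.14. With transcript length taken out the median turned to 0.04, with 7 genes lower and 3 higher, and with coding length it was -0.036, with 8 lower. Among them were RPLP2 (-0.62 ± 0.142 SE, adjusted p = 0.00278), RPL36 (-0.57), RPL35 (-0.58), RPS25 (-0.57), RPS3 (-0.41), RPL18 (-0.40), RPL24 (-0.49), RPL35A (-0.45) and RPS2 (-0.28). RPLP2, RPL18 and RPS2 were not called with either length curve taken out (adjusted p = 0.189 and 0.106 for RPLP2), nor RPL36 (adjusted p = 0.131) and RPL35 (adjusted p = 0.0786) with transcript length. Without replicate 3 at 1000 µM only 1 was called. Across the 80 genes, Spearman's rho between this fold and coding length was 0.46, and between the fold at 1000 against 0 µM and coding length 0.37; these are descriptions over genes that share the same libraries.

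For a few of the genes, individual libraries stood apart from the others of their dose. RPS28, RPS26, RPS15, RPL28 and RPL36A are named here because of this profile, after their values were seen. RPS28, at the exit of the mRNA channel, had 337, 334 and 324 CPM in the controls, 239, 342 and 1158 at 1 µM, 747, 645 and 309 at 10 µM, and 428, 222 and 203 at 1000 µM. RPS26, its neighbour at the exit, had 292, 202 and 244 in the controls, 208, 263 and 621 at 1 µM, 495, 473 and 247 at 10 µM, and 294, 169 and 194 at 1000 µM. RPS15, near the decoding site, reached 1077 in the same replicate 3 at 1 µM, from 612, 496 and 594 in the controls. RPL28 had 954 in that library, from 540.0, 533 and 539 in the controls. The 4 genes were thus all highest in the library with the largest mitochondrial share of the series, 14.2%, and RPS28 and RPS26 were next highest in replicates 1 and 2 at 10 µM, whose shares were 11.3 and 9.96%. In replicate 1 at 0.01 µM, which had the next largest share at 11.7%, RPS15 was instead at its lowest of all libraries (352 CPM), RPS26 was inside the control range (237), RPL28 was at 531 and RPS28 at 536. None of the 4 was called at any dose against 0 µM. Without the 3 libraries over 11% mitochondrial counts, the ribosomal protein genes called as lower numbered 40, 37 and 55 at 10, 100 and 1000 µM. With all libraries they numbered 48, 17 and 45. The counts without these 3 libraries are given without a share over all features. More calls among these genes and more calls in the whole table therefore cannot be told apart. The part of the mitochondrial share in these profiles was not tested.

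RPL36A had 62.8 CPM in replicate 1 at 0.01 µM and 249 to 513 in the other 20 libraries, the largest spread within groups of all 80 genes (an SD of 0.61 on the log2 scale). It shares its strand and part of its exons with the readthrough RPL36A-HNRNPH2, and its annotated pseudogenes held 27.5% as many counts as the gene itself. Over the 80 genes the median SD within groups was 0.25 on the log2 scale, against 0.21 over all features tested.

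**Figure D5:**
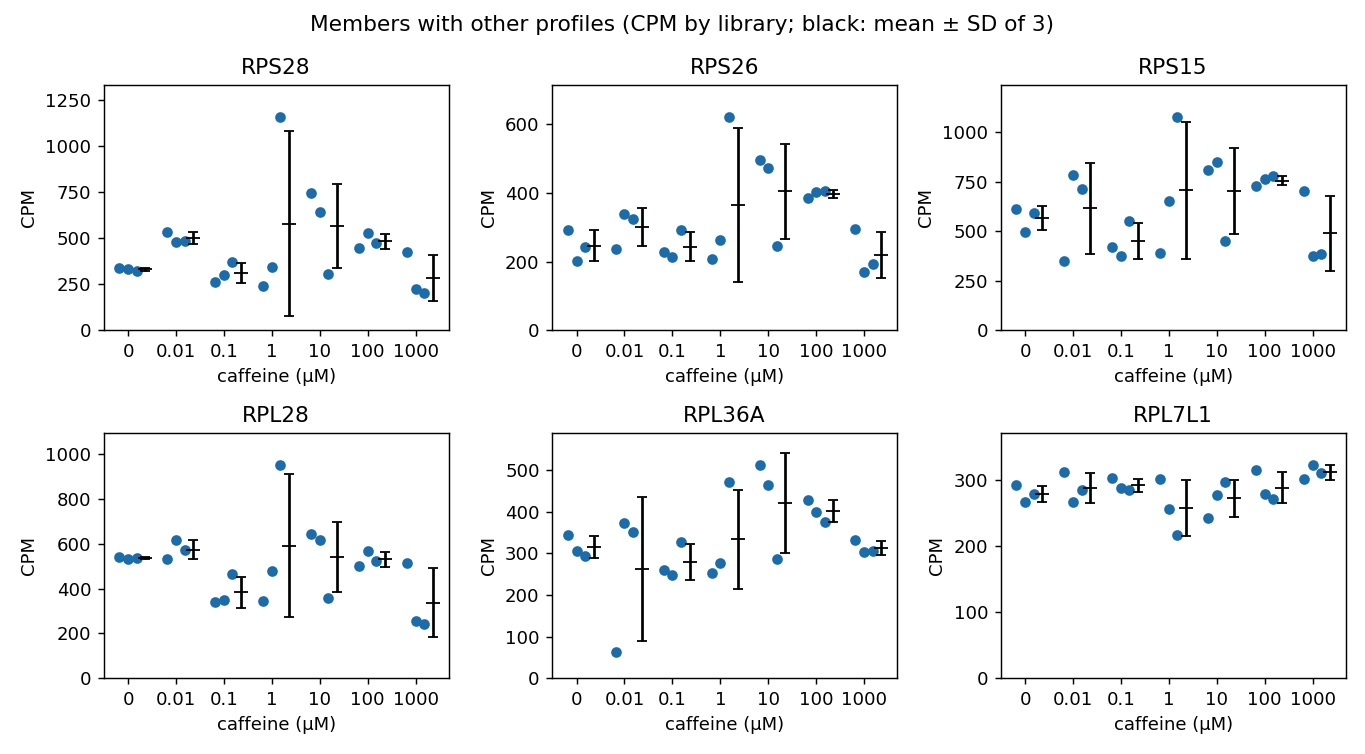
CPM of RPS28, RPS26, RPS15, RPL28, RPL36A and RPL7L1 in each library by caffeine dose in µM; black bars are the mean ± SD of 3 libraries. RPS28, RPS26, RPS15 and RPL28 peak in replicate 3 at 1 µM, RPL36A has a single low library at 0.01 µM, and RPL7L1 varies little.

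Levels were compared between genes as the mean CPM over the 21 libraries per kb of coding length. RPL41, the shortest at 75 nt, was highest with 9721 CPM per kb, followed by RPL13A with 3978, RPS24 with 3455, RPS2 with 2858 and RPL11 with 2564. RPL41 runs from 5388 to 19553 over the libraries and RPL13A from 2573 to 5958, so their ranges overlap, as do those of each next pair in this order. With transcript length in place of coding length RPL41 ranks at place 8 and RPS2 at place 1. The lowest were RPL22L1 with 39.3 CPM per kb, RPL26L1 with 74.6, RPL9 with 116.5, RPS15A with 200.1 and RPL7L1 with 372. The range of RPL22L1 (28.6 to 73.2) met that of RPL26L1 (53.1 to 110.7). RPL41 fell from 1119, 1467 and 789 CPM in the controls to 404, 837 and 548 at 1000 µM, with overlap, a fold of -0.92 ± 0.227 (SE; adjusted p = 0.00375). That fold was -0.44 (adjusted p = 0.0615) and -0.33 (adjusted p = 0.0797) with transcript and coding length taken out.

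Ribosomal protein genes have many processed copies, and reads that match a copy equally well could be counted there or lost, since how such reads were treated is not given in the sources used here. For 76 of the 80 genes the table also lists pseudogenes. Counts on all such pseudogenes came to 0.024 to 0.086% of a library, and those of RPL36A, RPL23A and RPL21 came to 27.5, 25.4 and 14.6% of the gene's own. Of 840 listed pseudogenes 47 were tested, and at 1000 µM 3 were higher and 8 lower. Counted over all 80 genes, 43 overlap another annotated gene, 15 of them on the same strand.

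FAU and RACK1, which stand outside the naming rule, were both lower. FAU, which encodes RPS30 fused to a ubiquitin-like protein, stood -0.75 ± 0.188 (SE; adjusted p = 0.00399) from the controls at 1000 µM on the log2 scale, and RACK1, a scaffold on the small subunit, -0.34 ± 0.0964 (SE; adjusted p = 0.00896). The mitochondrial ribosomal proteins, made from other nuclear genes, were lower in 52 of 78 at 1000 µM (median -0.53) and in 41 of 78 at 10 µM (median -0.43), with none higher. Against the mean of 0.01 to 10 µM they were lower in 27 and higher in 2. A lower level at 1000 µM was therefore not particular to the cytosolic ribosome.

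Among translation factors and other mRNAs with a TOP motif, calls went in both directions, and their share was near the background. Of 15 tested at 1000 µM, 2 were higher, EIF3A (0.80 ± 0.156 SE) and EIF4B (0.37), and 4 were lower, among them EIF3F (-0.66), EEF1D (-0.61) and EEF1B2 (-0.56), with a median of 0.06. EEF1A1, the main elongation factor, had a difference of 0.06 and EEF2 of 0.05, neither passing. Among 14 genes listed for mTORC1 signalling, related kinases and the control of TOP mRNAs, 6 were higher and 2 lower, with a median of 0.22. RPS6KB1, the S6 kinase, was higher by 0.61 ± 0.102 (SE; adjusted p = 0.000164), PDCD4, an inhibitor of translation initiation, by 0.35 and LARP4B by 0.42, while EIF4EBP1, a repressor that binds the cap-binding protein eIF4E (-0.46), and RPS6KA1 (-0.24) were lower. LARP1 differed by 0.22 (adjusted p = 0.0845).

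The machinery that makes ribosomes changed in both directions at 1000 µM. Of 15 genes of RNA polymerase I and its factors, UBTF was higher (0.43) and none was lower. Of 20 genes for rRNA modification and processing in the nucleolus, 6 were lower, including NOP10 (-0.90), RRP9 (-0.76) and NOP56 (-0.42), and 2 were higher, DDX21 (0.62) and WDR43 (0.29). Of 15 assembly factors of the small subunit, 4 were lower, led by TSR3 (-1.30 ± 0.199 SE; adjusted p = 7.37e-05), EMG1 (-0.97) and RRP7A (-0.40), and RIOK3 was higher (0.33). Of 21 tested for the large subunit, 4 were lower, including MRTO4 (-0.58), RRS1 (-0.54) and EIF6 (-0.59), and 3 higher, LSG1, NMD3 and SDAD1 (0.34, 0.51 and 0.31). Of 11 genes that sense or clear stalled ribosomes, NEMF (0.55), LTN1 (0.54) and MAP3K20 (0.31) were among 4 that were higher, and EDF1 (-0.75) and EIF2AK4 (-0.23) were lower. The share of all features called at this dose was 41.2%. That was above the shares among translation factors and in the polymerase, nucleolar and both assembly lists. It was below the shares in the mTORC1 and TOP mRNA list and in the stalled ribosome list. All these lists are given without a length curve taken out. At this dose 40.5% of other coding genes over 2000 nt were higher and 41.7% of those up to 500 nt were lower. The part of gene length in the lists was not tested.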

How the data were processed

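RNA was sequenced from 21 samples of HepG2 cells. The authors deposited a single table of read counts per gene, whole numbers with no normalization; GRCh38, HISAT2 and DESeq2 appear in the submitters' processing notes, with no role stated. The counting program, its annotation, strand setting and treatment of multiply mapped reads are not given in the sources used here. The table has 42 sample columns; 21 carry names of the labelled samples, and the other 21 were not used. The series' text names another compound for the control, and the sample labels, caffeine at 0 µM, were followed.

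Counts were tested with edgeR 4.0.16 (R 4.3.3), as a quasi-likelihood fit of 7 groups over all 21 libraries with TMM scaling and a minimum count of 10 in edgeR's filter, which left 14 residual degrees of freedom and 17468 features. P-values were adjusted over all of these by Benjamini and Hochberg, at 0.05. Standard errors are the log2 fold change over the square root of F. Alternatives used DESeq2 1.42.0, limma 3.58.1 for smoothing (span 0.3), other scalings and filters, a replicate term, a mitochondrial covariate, and libraries left out. The length and GC curves rest on 15694 tested features with a transcript length and 12891 with a coding length, and all 80 members have both. The fit was tested on simulated data.

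Gene coordinates, lengths and overlaps come from GENCODE 29 (GRCh38), and start sites from RefSeq (GRCh38.p14). The transcript models used for some members, RPL37, RPL37A, RPS23 and RPL27A among them, are much longer than their usual mRNA. Text names members by role list, those with the smallest adjusted p-values, and the 5 highest and 5 lowest levels. It also names all diverged paralogs among the members, stalk and 5S genes, RPS6 and RPS19. Of each other list it names up to 3 called genes per direction. A few genes are counted but not reported here by name. Members and lists were chosen with earlier results of these data known. Floors are not needed for the members, since each has at least 331 counts in every library. RPL3L and RPL39L are not members, since the rule left them out. Reads were counted without molecular identifiers, so copies from amplification cannot be told apart from separate molecules.

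Replicate numbers were not used as pairs in the main fit. Deviations of same-numbered libraries correlated at -0.437 to 0.249 over 63 pairs, with a median of 0.02. Those of libraries with other numbers correlated at -0.324 to 0.505 over 126 pairs, with a median of -0.005. These values cannot show whether samples with the same number were handled together.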

Additional observations from a re-analysis of the deposited data

How the results depend on the processing

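Each value counts ribosomal protein genes called, unless it is named a median. The counts in this section are given without a share over all features. Every count in the main settings, and every median, was downward, and in the alternatives the medians at each dose against 0 µM stayed below 0. At an adjusted p under 0.01 the counts were 0 at 0.01 µM, 18 at 10 µM and 0 at 100 µM against 0 µM, 0, 1, 1, 0 and 0 at 1000 µM against 0.01, 0.1, 1, 10 and 100 µM, 3 against the mean of 0.01 to 10 µM, 0 for the mean of 0.01 to 1 µM against 0 µM, 11 for the groups and 24 for the slope. With the transcript-length and GC curve taken out they were 0, 26, 10 and 20 at 0.01, 10, 100 and 1000 µM against 0 µM, 2, 0 and 0 at 1000 µM against 0.01, 10 and 100 µM, 6 for the mean of 0.01 to 1 µM, 17 for the groups and 24 for the slope, with medians of -0.20, -0.26, -0.34, -0.24 and -0.18 at 0.01, 1, 10, 100 and 1000 µM. With coding length, chosen after seeing the data, they were 0 and 30 at 0.01 and 10 µM, 0 and 0 at 1000 µM against 10 and 100 µM, 6 for the mean of 0.01 to 1 µM, 17 for the groups and 30 for the slope, with medians of -0.19, -0.27, -0.37, -0.31 and -0.28 at the same doses. Those curves turned the sign of 19 and 9 of the 80 genes at 1000 against 0 µM with transcript and coding length, and ended 28 and 16 of the 45 calls. Among the named genes, RPL12 (0.29 and 0.15), RPLP0 (0.171 and 0.0335), RPS24 (0.203 and 0.0834), RPS26 (0.24 and 0.17), RPS15 (0.44 and 0.37), RPS28 (0.06 and 0.32), RPL23, RPL26 and RPL36A turned with either length, and RPL7L1 (-0.11), RPL8 (0.07), RPL19 (0.010), RPL3 (0.07), RPS10 (0.14) and RPS14 (0.11) with transcript length; with single libraries left out RPLP0 ran from -0.297 (without replicate 2 at 1000 µM) to 0.0092 (without replicate 1 there). The cause was not tested.

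DESeq2 called 22, 3, 22 and 31 at 0.01, 0.1, 1 and 100 µM, and 11, 2 and 3 at 1000 µM against 0.01, 10 and 100 µM. The 6 libraries of 2 groups alone gave 0 at 0.01 µM and 58 at 100 µM. With the replicate block the counts were 0 at 0.01 µM, 9 at 100 µM, 5 and 0 at 1000 µM against 0.1 and 10 µM and 9 for the mean of 0.01 to 1 µM; 3 of 21 libraries correlated best with their own number. With the mitochondrial share as covariate they were 0 at 0.01 µM, and 3, 5 and 17 at 1000 µM against 10 µM, 100 µM and the mean of 0.01 to 10 µM. Without the 3 libraries over 11% mitochondrial counts, chosen after seeing the data, they were 0, 1 and 37 at 0.01, 0.1 and 100 µM, 14, 1, 0 and 5 at 1000 µM against 0.1, 1, 10 and 100 µM and 32 for the mean of 0.01 to 1 µM. At 1000 µM against 0.01, 0.1 and 100 µM upper quartile scaling gave 10, 13 and 2. No filter gave 10, 2 and 2 against 0.01, 10 and 100 µM, and at least 10 counts in every library gave 7 at 0.01 µM against 0 µM and 10 at 1000 against 0.01 µM.

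Leaving out 1 library at a time gave 0 to 13, 0 to 4, 0 to 20, 18 to 52, 0 to 28 and 30 to 56 at 0.01, 0.1, 1, 10, 100 and 1000 µM against 0 µM. It gave 0 to 11, 1 to 15, 0 to 11, 0 to 6 and 0 to 6 at 1000 µM against 0.01, 0.1, 1, 10 and 100 µM, 1 to 13 against the mean of 0.01 to 10 µM, 0 to 35 for the mean of 0.01 to 1 µM, 12 to 44 for the groups and 30 to 56 for the slope. The medians ran from -0.47 to -0.29, -0.43 to -0.20, -0.54 to -0.34, -0.68 to -0.52, -0.58 to -0.39 and -0.70 to -0.47 at 0.01 to 1000 µM. Among the single genes named, RPL11 missed the threshold without the first or second control or replicate 3 at 1000 µM, RPL13A without those or replicate 2 at 1000 µM, and RPL5 without replicate 1 there, while RPL26L1 passed without the third control or replicate 2 at 1000 µM and RPS15A without replicate 2. Depth did not limit these genes, whose lowest count was 331.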
